A study of Homo sapiens with 4 samples.

Results

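Circular RNAs (circRNAs) of endocytosis and vesicle trafficking genes were described in exosomes of pancreatic cancer cells. A circRNA forms when the end of an exon is joined back to the start of the same or an earlier exon, and sequencing detects it by reads across that back-splice junction. The circRNAs were chosen by the name of the host gene and by having at least 1 junction read in any library, with earlier results of these data known but without using a difference between groups. Host genes were those named RAB, SNX, EXOC, STX, VAMP, VPS, CHMP, SEC or ITSN followed by a digit, together with a short list of single genes (FCHO1, FCHO2, PICALM, EPS15, DNM2, DNM3, STAM, STAM2, HGS, TSG101, PDCD6IP, EEA1, GOLGA4 and TRAPPC8). Rows annotated as exonic, intronic or sense overlapping were kept where they had a read, which gave 96 circRNAs of 53 host genes, out of 9405 circRNAs with a read in the series. Of these 96, 74 were exonic (built of annotated exons), 18 were intronic and 4 were sense overlapping (over a gene on its strand, but not cut at exon ends on both sides). No circRNA of the 3 categories was read for FCHO1, STAM, PDCD6IP, HGS, DNM3 or GOLGA4.

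Exosomes are vesicles of endosomal origin. Cargo enters the cell through clathrin-coated pits, is sorted on endosomes by sorting nexins, retromer and the ESCRT complexes, and the ESCRT complexes also bud the inner vesicles that are released as exosomes when a multivesicular body meets the plasma membrane. Rab GTPases, tethers, the exocyst and SNARE proteins direct and fuse the carriers, while the SEC proteins of the COPII coat move cargo out of the endoplasmic reticulum. A circRNA of such a gene is a by-product of its splicing and need not carry the function of the protein.

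The irradiated group held 2 libraries (B1 and B2) of exosomal RNA from cells exposed to 10 Gy of X-rays, a dose used to generate dying tumor cells, and the control group held 2 libraries (A1 and A2) from cells without irradiation. Total RNA was depleted of ribosomal RNA, and the exosomes of both groups came from conditioned medium with exosome-depleted serum by differential centrifugation. Every library is labelled with the same 4 established human pancreatic cancer cell lines (BxPC-3, MIA PaCa-2, PANC-1 and SW1990), so which line gave which library is not known. B2 is here the column of that name in the deposited table, as in the title of the sample. The supplementary data sheets of the study use a column of another name for its second irradiated library, while its listing of sequencing reads names that library B2. For B2 that listing gives more circRNAs than the 1861 with a read in the column used here. For A1 (2052) and A2 (2485) the numbers are the same. It is therefore not settled that the values of B2 are those of the library the study compared, and they may belong to another library. Nothing in the labels says that the libraries of a group are separate cultures, so p-values measure only the spread between these libraries, which may be technical.

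The libraries held 15150 (B1) and 5756 (B2) junction reads in the irradiated group, against 6544 (A1) and 8094 (A2) in the control group. The 2 control libraries stood apart in their makeup: exonic circRNAs of all hosts took 10068 and 2066 reads in B1 and B2, but 3 and 4 reads in A1 and A2. Each comparison of exonic circRNAs in these data therefore sets many reads against almost none, whatever the host gene, and libraries and treatment cannot be told apart in this respect. Of 12 epithelial marker genes, 2 hosted a circRNA with reads. EPCAM had 2 reads in B1 and 0 in the other libraries, and GRHL2 had 0 in both irradiated libraries against 5 in A1 and 2 in A2. The keratins and CDH1 had none, and since circRNA reads depend on whether a gene forms circles, this is no measure of their expression.

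The trafficking circRNAs with the most reads are shown first as sequence. hsa_circ_0000419 of RAB3IP, the exchange factor that activates the GTPase RAB8, lies at chr12:70193989-70195501 (hg19, plus strand) and joins the end of exon 8 to the start of exon 7 of an 11-exon transcript. hsa_circ_0002490 of FCHO2, an F-BAR protein that bends the membrane at the start of a clathrin-coated pit, lies at chr5:72370569-72373320 (hg19, plus strand) and joins exon 21 to exon 20 of 26. The whole spliced circles, read from GRCh37 and starting at the base after the junction, are printed because these 2 circRNAs carry the statistical calls below, and capitals mark the second exon.
RAB3IP hsa_circ_0000419: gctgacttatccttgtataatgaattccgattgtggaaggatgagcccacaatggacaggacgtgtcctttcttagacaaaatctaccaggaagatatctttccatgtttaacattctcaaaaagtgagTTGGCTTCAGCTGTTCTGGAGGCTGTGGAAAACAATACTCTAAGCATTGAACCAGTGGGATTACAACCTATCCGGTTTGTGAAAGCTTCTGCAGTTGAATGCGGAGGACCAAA
FCHO2 hsa_circ_0002490: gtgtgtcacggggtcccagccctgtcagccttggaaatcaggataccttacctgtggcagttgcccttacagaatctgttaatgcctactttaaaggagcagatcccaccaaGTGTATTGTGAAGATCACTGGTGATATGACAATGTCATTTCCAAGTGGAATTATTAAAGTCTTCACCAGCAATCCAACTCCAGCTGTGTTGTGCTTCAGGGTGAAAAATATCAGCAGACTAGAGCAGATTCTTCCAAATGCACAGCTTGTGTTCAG
The RAB3IP circle is 242 nt long, with 129 nt from exon 7 and 113 nt from exon 8, and the FCHO2 circle is 268 nt long, with 112 nt from exon 20 and 156 nt from exon 21. Both hold coding sequence only, neither length is a multiple of 3, and their GC contents are 42.6% and 45.1%. The primer pair that the study used for hsa_circ_0000419 lies at bases 139 to 158 (forward) and 44 to 63 (reverse) of the circle, so its 167 nt product runs across the junction. The paper reports that its qRT-PCR of this circRNA, irradiated against control, matched its sequencing result.

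For the other circRNAs that the results turn on, the 20 bases before and the 20 bases after the junction are given, with the bases after the junction in capitals.
EXOC6B hsa_circ_0009043: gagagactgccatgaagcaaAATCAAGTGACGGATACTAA
STAM2 hsa_circ_0117655: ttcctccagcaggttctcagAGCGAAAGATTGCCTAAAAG
VPS13A hsa_circ_0087243: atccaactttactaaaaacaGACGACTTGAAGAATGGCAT
SEC31A hsa_circ_0003549: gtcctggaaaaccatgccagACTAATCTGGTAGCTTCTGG
VAMP3 hsa_circ_0006354: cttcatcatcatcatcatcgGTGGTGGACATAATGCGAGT
PICALM hsa_circ_0023936: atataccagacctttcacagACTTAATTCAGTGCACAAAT
PICALM hsa_circ_0023919: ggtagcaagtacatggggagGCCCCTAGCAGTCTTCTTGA
SNX6 hsa_circ_0101698: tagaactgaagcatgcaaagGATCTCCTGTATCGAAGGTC
Each of these runs from the end of an annotated exon into the start of the same or an earlier exon. As a contrast, 4 intronic circRNAs with control reads are shown in the same way, and none of their ends is an exon end.
SNX19 chr11:130756361-130756550: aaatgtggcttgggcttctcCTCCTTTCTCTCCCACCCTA
SEC24B-AS1 chr4:110326709-110326886: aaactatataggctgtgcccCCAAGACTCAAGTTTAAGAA
RAB11FIP3 chr16:560847-561477: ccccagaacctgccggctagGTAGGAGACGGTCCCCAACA
SEC24C chr10:75520043-75522003: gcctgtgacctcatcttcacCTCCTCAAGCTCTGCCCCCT

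Trafficking circRNAs took a larger share of the junction reads in both irradiated libraries than in both control libraries, and exonic circRNAs made up most of this excess. In the irradiated group, 333 reads of 66 trafficking circRNAs in B1 came to 2.20% of its junction reads (95% Wilson interval 1.98 to 2.44%), and 82 reads of 31 circRNAs in B2 came to 1.42% (1.15 to 1.76%). In the control group, 6 reads of 3 circRNAs in A1 came to 0.0917% (0.0420 to 0.200%), and 14 reads of 5 circRNAs in A2 came to 0.173% (0.103 to 0.290%). The groups did not overlap, and the intervals, which cover counting error only, did not overlap between groups either. The share averaged 1.81 ± 0.547% in the irradiated group and 0.132 ± 0.0575% in the control group (SD, n = 2 each). Per junction read, trafficking circRNAs were 14.5-fold more frequent in the irradiated group (exact binomial interval of the pooled counts 9.29 to 24.0), while the circRNAs of all other hosts in the same 3 categories were 1.63-fold more frequent (1.58 to 1.68). These 2 ratios are not like for like, since 74 of the 96 trafficking circRNAs were exonic, against 2493 of the 5490 of other hosts. Exonic circRNAs of every kind of host were almost absent from the control libraries, so the ratios show no trait particular to trafficking hosts. Less circRNA per vesicle and fewer vesicles that carry it cannot be told apart in such bulk libraries.

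**Figure D1:**
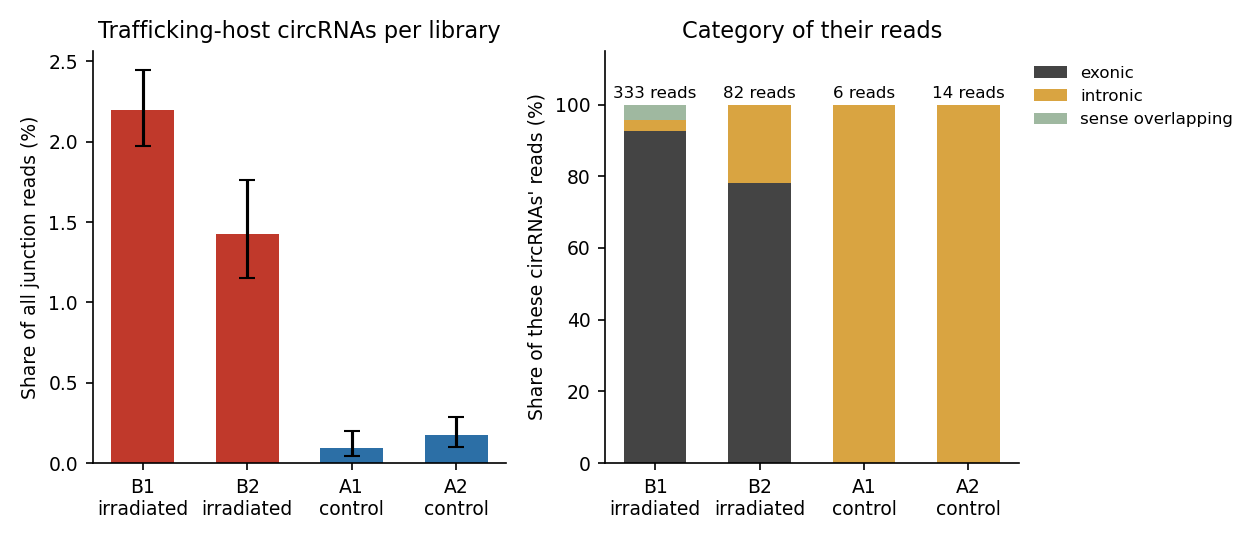
Left, the share of all junction reads that fell on trafficking-host circRNAs in each library (percent, bars; error bars are 95% Wilson intervals). Right, the share of those reads by category (percent), with the number of reads above each bar; exonic reads make up 92.5% in B1 and 78.0% in B2, and the reads of A1 and A2 are all intronic.

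By category, the exonic trafficking circRNAs had 308 reads in B1 and 64 in B2, versus 0 in each control library. With 3 reads over the control group as the floor, their reads were at least 86.8-fold more frequent per junction read in the irradiated group. Exonic circRNAs of all other hosts had 11762 reads in the irradiated group against 7 in the control group, so the near absence of exonic circRNAs in the control libraries was not particular to trafficking hosts. Among exonic reads alone, the trafficking hosts took 3.06% in B1 (2.74 to 3.41%) and 3.10% in B2 (2.43 to 3.94%), with overlapping intervals in libraries of unequal depth. Intronic trafficking circRNAs showed no such contrast, with 11 reads in B1 and 18 in B2, compared with 6 in A1 and 14 in A2. Per junction read these came to a pooled ratio of 1.02 between irradiated and control (0.555 to 1.89), where the intronic circRNAs of other hosts had a ratio of 0.384 (0.365 to 0.404). The pooled 1.02 hides a split: per junction read, B1 (11 of 15150 reads) lay below both control libraries and B2 (18 of 5756) above both. These intervals cover counting error only, not the spread between libraries, and the difference between the 2 ratios was not tested. The 4 sense overlapping circRNAs (of SEC14L1, RAB7A, SEC63 and RAB23) had 14 reads, all in B1.

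No trafficking circRNA was read in both groups. Of the 96, 88 were seen in the irradiated group only and 8 in the control group only. Such separation was the rule in these data: of the 5490 circRNAs of other hosts, 3637 (66.2%) were seen in the irradiated group only, 1822 in the control group only and 31 in both. Reads in both irradiated libraries were found for 9 circRNAs, all exonic, which is 12.2% of the 74 exonic ones, close to the 10.9% of exonic circRNAs of other hosts. A further 57 were read only in B1 and 22 only in B2, and 38 of the 96 rested on 1 or 2 reads. Since reads were few, absence from a library was mostly not detectable as such: the 3 reads that a count of 0 allows come to 0.0521% of the reads of B2, the shallowest library. B1 held 82.8% of the irradiated reads of the exonic trafficking circRNAs (exact interval 78.6 to 86.5%) and 83.0% of those of other hosts, so that library dominates the counts of both.

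The 2 leading circRNAs were called higher in the irradiated group at the thresholds of the study (fold change over 2 and unadjusted p below 0.05). RAB3IP hsa_circ_0000419 had 43 reads in B1 and 2 in B2, versus 0 in each control library. Both irradiated libraries lay above both control libraries, but B1 held 95.6% of the reads (exact interval 84.9 to 99.5%), and against the floor of 3 control reads the circRNA was at least 10.5-fold more frequent per junction read. In edgeR's quasi-likelihood F test over all 1957 circRNAs with 5 or more reads it passed the unadjusted threshold and had an adjusted p of 0.305 (Benjamini-Hochberg). FCHO2 hsa_circ_0002490 had 39 reads in B1 and 6 in B2, versus 0 in each control library, and was also at least 10.5-fold more frequent. Its adjusted p was 0.285 in the same edgeR test, so neither circRNA passed after adjustment. Together they held 90 of the 435 reads of all trafficking circRNAs (20.7%).

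Of the 24 trafficking circRNAs tested, these 2 were called higher, beside 3.53% of all circRNAs tested (and 5.77% of the exonic ones). None was called lower, beside 0.204% of all, and none passed an adjusted p of 0.05, beside 0.102% of all. With DESeq2, 1 of the 24 passed the unadjusted threshold and 0 passed after adjustment, beside 4 and 0 of all 1957. The 24 are those that reached 5 reads in sum, which here came from the irradiated libraries alone, so the test saw only circRNAs that were high in that group. With each 0 in the control group set at the floor of 3 reads, the median fold per junction read was 1.52 for the 24 and 1.17 for all 1957 (1.63 for the 901 exonic ones). Both irradiated libraries exceeded both control libraries for 5 of the 22 exonic ones tested, against 23.2% of all exonic circRNAs tested, a share near the background. The count of 2 rested on single libraries, but so did the count over all circRNAs: it was 7 of 20 without B2 (386 of 1684 over all), 1 of 2 without B1 (127 of 819) and 1 of 24 without A2 (8 of 1621). Without B1 or B2 the irradiated group is 1 library, which is then assumed to vary like the control libraries. FCHO2 hsa_circ_0002490 was called in each of these fits, while RAB3IP hsa_circ_0000419 was not called without A2 and could not be tested without B1.

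**Figure D2:**
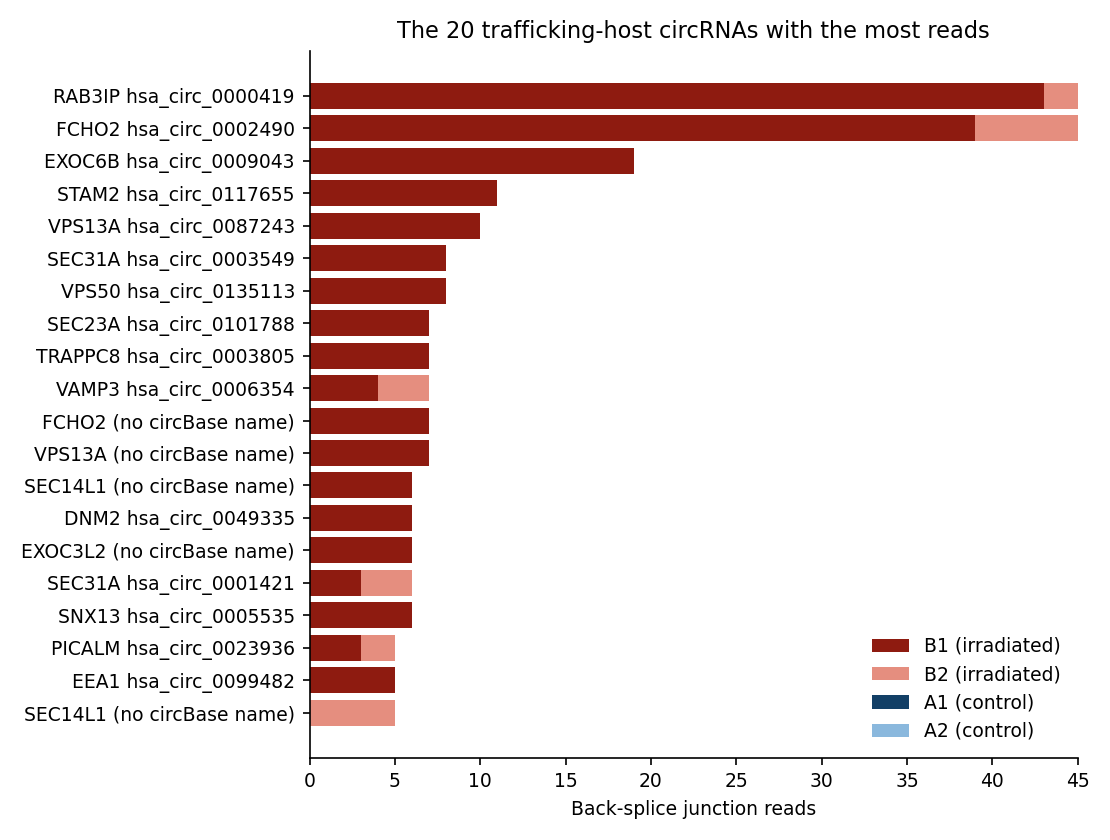
Junction reads (x axis) of the 20 trafficking circRNAs with the most reads, stacked by library in the order B1, B2 (irradiated), A1, A2 (control). RAB3IP and FCHO2 reach 45 reads each, EXOC6B has 19, and no bar holds a control read.

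The clathrin-coated pit genes formed the largest group by reads, with 23 circRNAs of 6 hosts and 92 reads in B1 and 17 in B2, versus 0 in each control library. FCHO2 had 2 further exonic circRNAs beside the one above, with 7 and 4 reads in B1 and none elsewhere. One of them, at chr5:72311453-72351934, has no circBase name and spans exons 7 to 16 (653 nt), and the other, hsa_circ_0072954, spans exons 3 to 5. All FCHO2 circRNAs together had 50 reads in B1 and 6 in B2, versus 0 in both control libraries.

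PICALM, a clathrin assembly protein that binds membrane phosphoinositides, gave the most different circRNAs of any trafficking host: 11, of which 9 were exonic. Its reads were spread thinly over them, with 19 in B1 and 9 in B2 against 0 in each control library, and no circRNA held more than 5. The most frequent, hsa_circ_0023936 (exons 2 to 8, 677 nt), had 3 reads in B1 and 2 in B2, versus 0 in both control libraries. hsa_circ_0023919 (exons 9 to 12, 451 nt) had 2 reads in B1 and 2 in B2, again against 0 and 0. These circles reused the same splice sites: 4 PICALM circRNAs began at exon 2 and 4 ended at exon 12, and the one of exons 2 to 12 has both of these ends. PICALM also had 2 intronic circRNAs with 3 reads each, one in B1 and one in B2.

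EPS15, a scaffold of the pit that binds the adaptor AP-2, had 5 exonic circRNAs of 1 to 4 reads, all in B1, which summed to 12 reads against 0 in B2 and in both control libraries. DNM2, the dynamin that severs the neck of the vesicle, had 1 circRNA (hsa_circ_0049335, exons 9 to 11) with 6 reads in B1 and 0 in the other libraries. The intersectin scaffolds ITSN1 and ITSN2 had 2 and 5 reads in the irradiated group against 0 in the control group. The ITSN1 circRNA was the longest exonic one of the trafficking hosts, with 22 exons and 2988 nt, and rested on 2 reads.

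**Figure D3:**
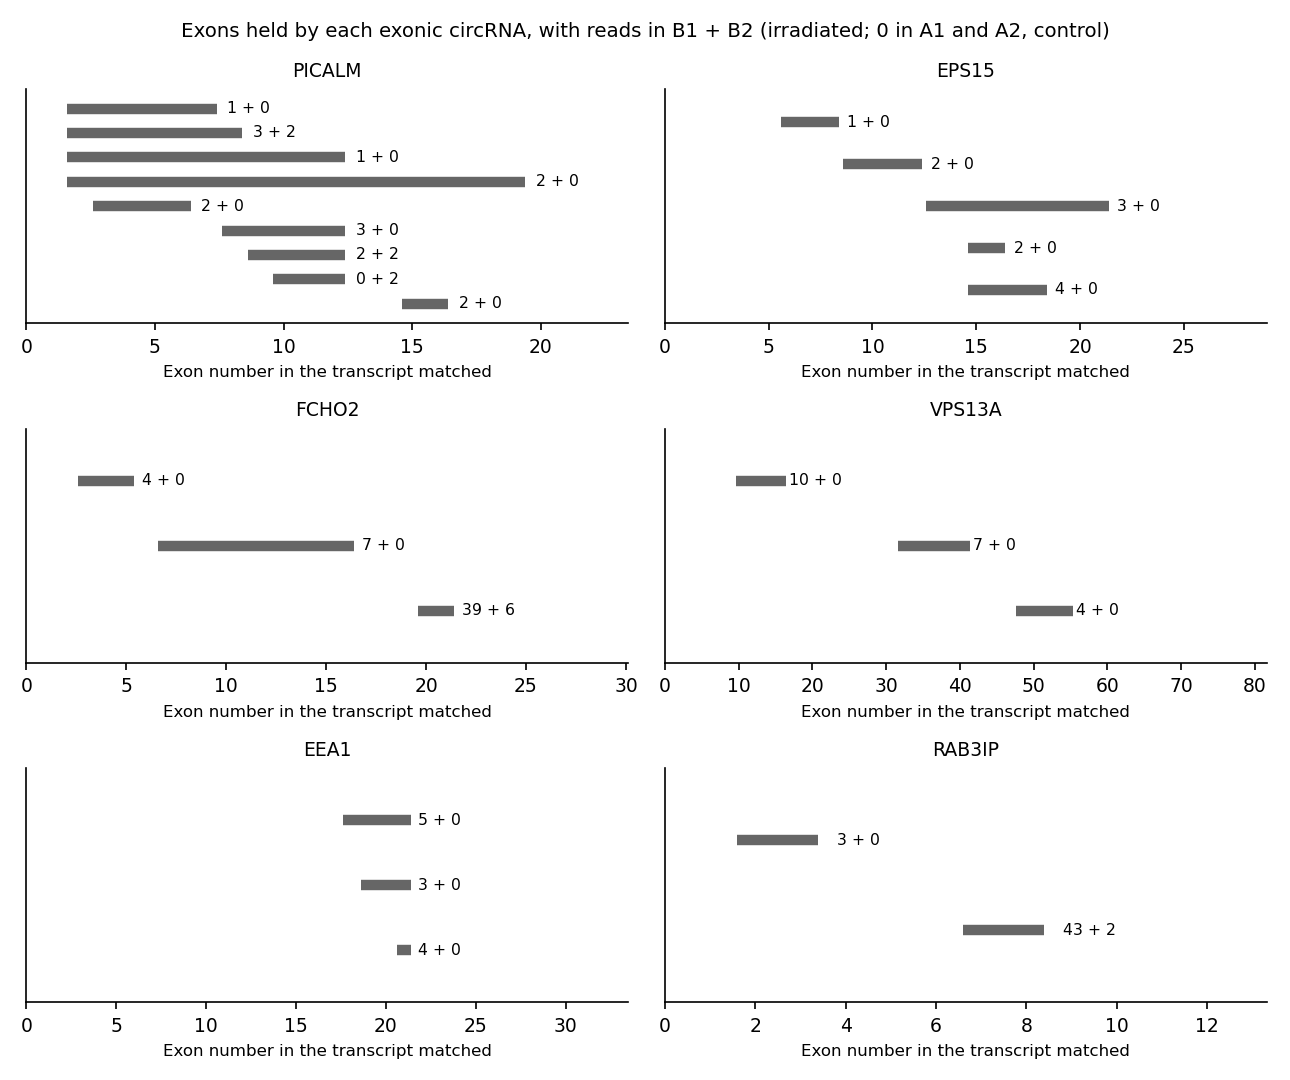
Exons held by each exonic circRNA of 6 trafficking hosts (x axis, exon number in the matched transcript; 1 bar per circRNA), with its reads in B1 + B2 beside the bar; all had 0 reads in A1 and A2. PICALM circles share ends at exons 2 and 12, and the 3 EEA1 circles all end at exon 21.

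Rab regulators and effectors had 7 circRNAs of 4 hosts, with 51 reads in B1 and 10 in B2, compared with 2 in A1 and 0 in A2. RAB3IP made up most of them. Its second circRNA, hsa_circ_0099132, spans exons 2 and 3 with the start codon and had 3 reads in B1 and none in the other libraries. RAB3GAP1, the catalytic subunit of the RAB3 GTPase-activating complex, had 2 exonic circRNAs that start at the same exon: hsa_circ_0002291 had 5 reads in B1 and 0 elsewhere, and hsa_circ_0117340 had 3 reads in B2 and 0 elsewhere. RAB11FIP1 and RAB11FIP3 are effectors of RAB11 on recycling endosomes. The reads of RAB11FIP1 (5) fell in B2 alone and those of RAB11FIP3 (2) in A1 alone. The Rab GTPases themselves had few reads, with 11 in B1 and 4 in B2 against 0 in each control library, spread over RAB7A, RAB1A, RAB18, RAB23 and RAB40C. RAB7A, which acts on late endosomes, had the most (6, in B1), and 4 of these came from the sense overlapping circRNA at chr3:128525215-128532314.

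**Figure D4:**
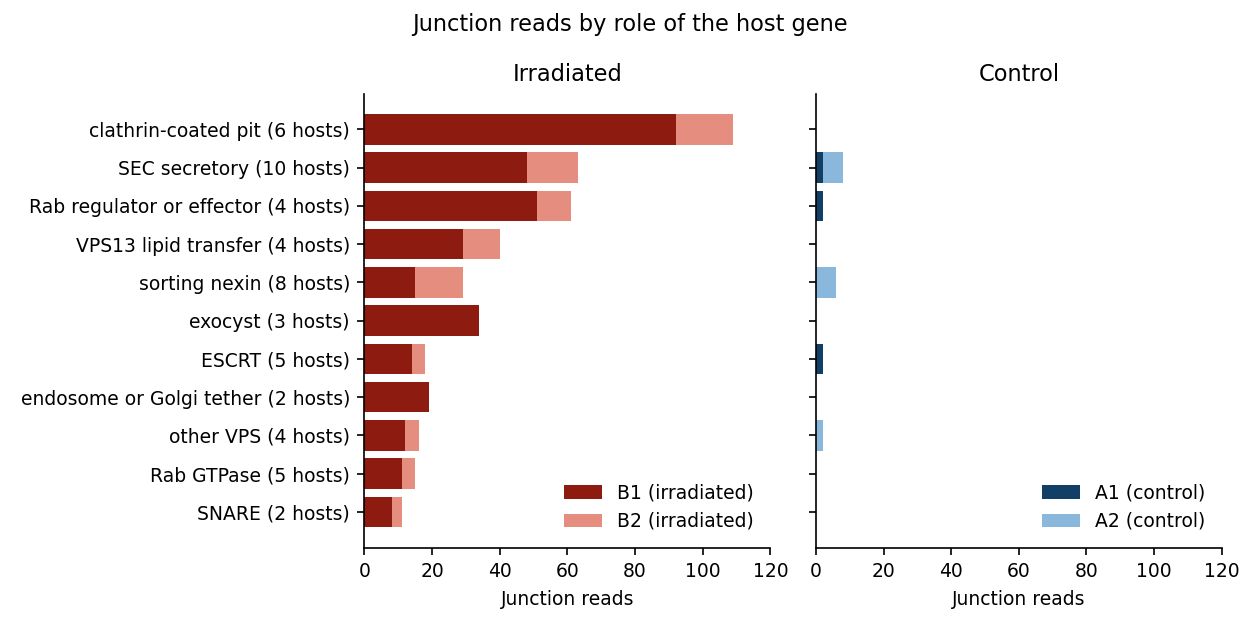
Junction reads (x axes, same scale) by role of the host gene in the irradiated libraries (left) and the control libraries (right), stacked by library. Clathrin-coated pit hosts have 109 reads in the irradiated group and 0 in the control group, and the control reads fall on SEC, sorting nexin, Rab regulator, ESCRT and other VPS hosts.

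Among the ESCRT genes, which sort ubiquitinated cargo and bud vesicles into the endosome, STAM2 stood out by its count. hsa_circ_0117655 (exons 3 to 5, 322 nt, at chr2:153003676-153004814) had 11 reads in B1 and 0 in B2, A1 and A2, at least 2.57-fold more frequent in the irradiated group per junction read. Only B1 was high, and the adjusted p was 0.549 in the edgeR fit. VPS36 had 3 reads in B1, while CHMP3 and VPS37C had 2 reads each in B2, from intronic circRNAs. TSG101, whose protein is a common exosome marker, gave no exonic circRNA: its only circRNA was intronic and had 2 reads in A1 and 0 in the other libraries, both irradiated ones included.

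Many sorting nexins bind endosomal phosphoinositides, and some of them shape recycling tubules. The 12 sorting nexin circRNAs of 8 hosts had 15 reads in B1 and 14 in B2, compared with 0 in A1 and 6 in A2. As a share of all junction reads this came to 0.0990% (B1) and 0.243% (B2), compared with 0% (A1) and 0.0741% (A2), so that B2 was the higher of the irradiated libraries here. SNX6 hsa_circ_0101698 (246 nt) had 1 read in B1 and 3 in B2, against 0 in each control library, and SNX11 hsa_circ_0002069 had 1 read in each irradiated library against 0 in each control library. SNX13 hsa_circ_0005535 had 6 reads in B1 and 0 in the others, whereas both SNX25 circRNAs had 3 reads in B2 alone. SNX6 was also 1 of the 2 hosts read in both groups, through an intronic circRNA with 2 reads in A2, and over all its circRNAs it had 3 reads in each irradiated library, against 0 in A1 and 2 in A2. SNX19 had 4 reads in A2 and none elsewhere.

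The VPS13 proteins, large bridges that carry lipids between membranes, had 9 circRNAs with 29 reads in B1 and 11 in B2, versus 0 in each control library. VPS13A hsa_circ_0087243 (exons 10 to 16, 756 nt, at chr9:79829245-79842401) had 10 reads in B1 and 0 in the other libraries, at least 2.33-fold more frequent per junction read, with an adjusted p of 0.549 in edgeR. A second circle of exons 32 to 41, with no circBase name, had 7 reads in B1 alone. VPS13D had its 6 reads in B2 alone, and VPS13B had 5 in B1 and 2 in B2. Of the remaining VPS genes, VPS50, a subunit of the endosome-associated recycling complex, had 8 reads in B1 (hsa_circ_0135113, exons 3 to 21, 1875 nt) and 0 in the others. VPS53 was the other host read in both groups, with 4 exonic reads in B2 and 2 intronic reads in A2.

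Exocyst hosts and the tethers EEA1 and TRAPPC8 were read in B1 alone, with 34 and 19 reads. They had 0 in B2 and 0 in either control library. EXOC6B hsa_circ_0009043 (exons 3 to 6, 390 nt, at chr2:72945232-72960247) came next among all trafficking circRNAs, with 19 reads in B1 and 0 in B2, A1 and A2. It was at least 4.43-fold more frequent per junction read in the irradiated group, had an adjusted p of 0.549 in edgeR, and lies between a 142434 nt intron downstream and an 8185 nt intron upstream. EXOC6 and EXOC3L2 had 4 and 6 reads, all in B1. EEA1, a RAB5 effector that tethers early endosomes, had 3 circRNAs with 5, 4 and 3 reads in B1, and TRAPPC8, of a complex that tethers vesicles at the Golgi, had 7 reads of hsa_circ_0003805 in B1. The SNARE VAMP3 of recycling endosomes was read more evenly: hsa_circ_0006354 (exons 3 and 4, 211 nt) had 4 reads in B1 and 3 in B2, versus 0 in each control library. STX17, a SNARE of autophagosome fusion, had 4 reads in B1 and none elsewhere.

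SEC hosts had 19 circRNAs of 10 genes, with 48 reads in B1 and 15 in B2, compared with 2 in A1 and 6 in A2. SEC31A, of the outer COPII coat, had 6 exonic circRNAs with 15 reads in B1 and 9 in B2, versus 0 in each control library. hsa_circ_0003549 (380 nt) had 8 reads in B1 and none elsewhere, while hsa_circ_0001421 (403 nt, with the start codon) had 3 reads in B1 and 3 in B2, versus 0 in both control libraries. SEC23A and SEC23B of the inner coat had 7 and 5 reads, all in B1, and SEC63 of the translocon had 8 reads in B1 over 3 circRNAs. SEC11A hsa_circ_0000647, of the signal peptidase, had 1 read in each irradiated library and 0 in each control library. The inner-coat gene SEC24C had control reads only, 2 in A1 and 2 in A2, from intronic circRNAs. SEC14L1 had a sense overlapping circRNA with 6 reads in B1 alone and an exonic one (exons 2 to 5, 480 nt) with 5 reads in B2 alone. SEC14L1 and EXOC3L2 came in through the name rule as relatives of the namesake proteins, and so did SEC24B-AS1, a noncoding antisense gene that had 4 reads in A2.

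Summed per host, 46 of the 53 genes had no control read, 5 had control reads only and 2 (SNX6 and VPS53) had reads in both groups. Of the 3673 other hosts, 63.5% had no control read, 29.2% had control reads only and 7.30% had reads in both groups. Reads in both irradiated libraries were found for 14 of the 53 hosts and for 466 of the 3673 other hosts. These host sums mix categories, and more of the trafficking circRNAs were exonic (74 of 96, against 2493 of 5490). Among exonic circRNAs alone, 12.2% had reads in both irradiated libraries, against 10.9% for other hosts. The hosts not described above (SNX1, SNX4, SNX14, SEC22A, SEC24B, VPS13C, VPS26A and VPS8) had 2 to 4 reads each, all in the irradiated group. In edgeR's quasi-likelihood F test on host sums, 28 trafficking hosts had 5 or more reads. Of these, 6 were called higher in the irradiated group, beside 9.44% of all 1504 hosts tested, and none was called lower, beside 1.13%. On exonic circRNAs only, 3 of 24 were called higher, beside 52 of all 907 hosts tested. Of the 28, only SNX6 and VPS53 had a control read. The others reached 5 reads through the irradiated libraries alone, so the test could not call them lower. FCHO2 (adjusted p = 0.0287) and RAB3IP (46 reads in B1 and 2 in B2, versus 0 in both control libraries; adjusted p = 0.0495) also passed adjustment, beside 1.2% of all hosts. PICALM (adjusted p = 0.107), SEC31A (0.133), VPS13A (21 and 3 reads in B1 and B2; 0.266) and EXOC6B (24 and 0 reads; 0.333) did not. At their floor in the control group, FCHO2 was at least 13.1-fold, RAB3IP at least 11.2-fold and PICALM at least 6.54-fold more frequent per junction read. With zeros at the floor, the median fold was 1.63 for the 28 hosts and 1.40 for all hosts. The count of 6 fell to 0 of 9 without B1 (18 of 507 over all hosts) and to 2 of 22 without B2 (52 of 1263), where the spread comes from the control libraries alone. The 2 calls that passed adjustment became 0 with any 1 of the 4 libraries left out, and also with RLE factors, without scaling factors, with DESeq2, with the replicate block and on exonic circRNAs only.

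Trafficking hosts gave somewhat more circRNAs each than other hosts: 32 of 53 (60.4%) had a single circRNA, against 74.1% of the 3673 other hosts, and 4 of 53 (7.55%) had 4 or more, against 3.76%. They lay on 21 chromosomes. As a description of structure, all 74 exonic circRNAs began and ended at annotated exon ends, and the length given in the deposited table equalled the summed exon length in each case. They held a median of 3 exons, as did those of other hosts, and had a median length of 424.5 nt against 452 nt. Coding sequence alone made up 67 of them (90.5%, against 81.4% of other hosts), and the other 7 held the start codon. Fewer began at exon 2, 15 of 74 (20.3%) against 28.6%. Their flanking introns had a median of 4983 nt against 7330 nt, and both introns exceeded the median intron of the transcript in 47.3% against 63.2%. The longest stretch in the 1000 nt beside the junction that could pair with the other side had a median of 12.5 nt, against 11 nt. None of these differences between trafficking and other hosts was tested.

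The names in circBase, a catalogue of known circRNAs, covered 63 of the 74 exonic trafficking circRNAs (85.1%, against 86.6% for exonic circRNAs of other hosts) and none of the 18 intronic ones. The splice motif, AG before the start and GT after the end of the circle, was present on the strand of the host for all 74 exonic circRNAs, as for 100% of those of other hosts. On the nuclear chromosomes, only 1 circRNA of the 3 categories, an intronic one of another host, had it on neither strand. Its presence on some strand therefore sets no circRNA apart. Of the 18 intronic ones, 9 had it on that strand and 9 on the opposite strand, and of the 8 with control reads 4 and 4, beside 55.8% on the host strand among intronic circRNAs of other hosts. The number of identical bases shared at the 2 genomic ends of a circle had a median of 2 and a maximum of 6 for the exonic circRNAs. It reached 15 for the intronic VPS53 circRNA and 10 for those of RAB11FIP3 and SEC24C printed above, with a median of 3 over the 18. Intronic circRNAs of other hosts on the nuclear chromosomes had a median of 5. Of these, 45.2% shared 6 or more bases, against 33.3% of the 18. All 20 control reads of trafficking hosts lay at intronic circRNAs, none of which had an end at an exon end. Antisense circRNAs at the same host genes, which the rule left out, had 12 reads (B1) and 8 reads (B2) in the irradiated group, against 16 (A1) and 4 (A2) in the control group.

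Beyond the named hosts, 186 other genes of vesicle trafficking were listed (adaptors and coats, GTPase regulators, further tethers), of which 78 had a circRNA in the same 3 categories. Their 121 circRNAs had 334 reads in B1 and 49 in B2, compared with 33 in A1 and 28 in A2. ASAP1, an ARF GTPase-activating protein, had 27 reads in B1 and 5 in B2, versus 0 in each control library (adjusted p = 0.113 in edgeR), and DENND4C, an exchange factor for RAB10, had 28 in B1 and 0 in the others (adjusted p = 0.254). These were the 2 called higher of the 34 listed hosts tested, none was called lower and none passed adjustment, beside the 9.44% of all hosts called higher. ACAP2, also an ARF regulator, had 10 reads in B1 and 0 in B2, compared with 0 in A1 and 4 in A2, and AP5M1, of the adaptor AP-5, had 14 in B1 and 0 in the others. Among markers of other cell types, 3 of 20 blood and plasma genes and 2 of 10 stroma genes hosted a circRNA. So did 3 of 10 neuron and glia genes, and reads were few at all of these but RMST. The blood and plasma genes had 3 reads (B1) and 2 (B2), against 0 (A1) and 2 (A2), the stroma genes 0 (B1) and 10 (B2), against 0 in both control libraries, and the neuron and glia genes 39 (B1) and 0 (B2), against 2 (A1) and 3 (A2). The 39 reads in B1 came from the noncoding gene RMST, and the part of such cells in the results above was not tested.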

How the data were processed

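Trimming (cutadapt 1.9.3), alignment to hg19 (STAR 2.5.1b) and detection of back-splice junctions (DCC) were done by the authors. Per circRNA and library, the table deposited holds raw counts of reads across the junction, and a further column holds the predicted length. 4 columns of per-library values, whose names match no sample title, were not used here, nor were the log2 CPM values of the authors. It is not settled whether the columns left out include the second irradiated library that the study compared. Members and lists were chosen with earlier results of these data known. circRNAs (or hosts, summed over exonic, intronic and sense overlapping circRNAs) with a total of 5 or more reads were tested with edgeR 4.0.16 in R 4.3.3 (TMM, quasi-likelihood F test, Benjamini-Hochberg over all tested). A check of the code on simulated data used far more reads and far less spread than these libraries have. It therefore does not show how the test behaves at the counts here. Named are the 20 members with the most reads, those in both irradiated libraries, those called, the most-read of each role, the 10 hosts with the most reads, the 6 with the most circRNAs and 4 other trafficking hosts; members outside these are named to account for each role. Exons are from GENCODE v44lift37. Alternatives are given in the closing section. Depth was 5756 to 15150 junction reads per library. Intervals and floors cover counting error only.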

Additional observations from a re-analysis of the deposited data

How the results depend on the processing

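The share of junction reads on trafficking hosts was higher in the irradiated group by 1.68 percentage points and by 1.29 to 2.07 with each library left out, and it moved by less than 1 SD with exonic circRNAs only, circBase circRNAs only, chromosome M left out or at least 2 reads per circRNA and library. For trafficking circRNAs, the 2 calls became 1 without scaling factors or with DESeq2, and 1 to 7 with each library left out. The 6 trafficking hosts called became 2 with RLE factors, 1 with DESeq2 and 3 on exonic circRNAs only, and 0 to 4 with each library left out. Over all circRNAs, 73 calls became 14 with RLE factors, 32 without scaling factors, 138 at a minimum of 10 reads, 13 with filterByExpr (21 tested, no trafficking circRNA among them), 190 with the newer quasi-likelihood form, 163 with the likelihood ratio test, 4 with DESeq2 and 8 to 386 with each library left out. With mapped reads as library sizes and no scaling factors, chosen after seeing the data, it was 37 (the mapped reads listed for B2 may be those of another library). Of the 73 calls 69 were higher, but 7 of 32 without scaling factors, 4 of 13 with filterByExpr and 21 of 37 with mapped reads. Over all hosts, 159 calls became 11 with RLE factors, 95 without scaling factors (58 higher), 21 with DESeq2, 52 on exonic circRNAs only and 18 to 64 with each library left out.

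Replicate numbers are shared between the groups, and nothing in the labels says that a number marks a shared culture. The deviations of same-numbered libraries correlated by 0.0267 over 1957 circRNAs, nearly all of which have no reads in one group and so say little, and by -0.424 over the 33 with reads in both groups. A fit with the replicate block called 78 circRNAs, 2 of them trafficking (both with an adjusted p of 0.0495), and 0 of all hosts and 0 of the trafficking hosts, where the main test called 159 and 6. The crossed replicate block (B1 with A2, B2 with A1), chosen after seeing the data, called 177 circRNAs, 3 of them trafficking, and 4 hosts, 0 of them trafficking. The 2 trafficking hosts that passed adjustment became 0 with RLE factors, without scaling factors, with DESeq2, with either block and on exonic circRNAs only. With no filter the count was 1 of 53, beside 13 of all 3726 hosts. At a minimum of 10 reads it was 5 of 10, beside 122 of all 504 hosts tested. Adjusted calls of trafficking circRNAs also went to 3 of 5 at a minimum of 10 reads, beside 106 of all 307 circRNAs tested. With robust estimation they were 2 of 24, beside 10 of all 1957. The replicate block and the crossed block each gave 2 of 24, beside 16 and 43 of all 1957. Without B2, the added calls beside RAB3IP and FCHO2 were EXOC6B, STAM2, VPS13A, SEC31A and VPS50, all read in B1 alone. Of 387 other values of named circRNAs and hosts, 344 kept their side of the threshold, 34 lost it and 9 gained it. Their direction could not turn, since none of them had a control read. The cause of these changes was not tested. Against the main test, the median fitted log2 fold change over all circRNAs shifted by 0.81 with RLE factors and by -1.31 without scaling factors, and single circRNAs shifted by -0.28 to 1.33 and by -2.60 to -0.54. Depth limits single circRNAs: 24 of 96 reached 5 reads.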
